A study of Mus musculus with 6 samples.

Results

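Messenger RNA levels of the leukocyte beta-2 integrins and of their ligand ICAM-1 were examined in mouse macrophages. The group holds 6 genes: the alpha subunits Itgam (CD11b), Itgal (CD11a), Itgax (CD11c) and Itgad (CD11d), the shared beta subunit Itgb2 (CD18), and Icam1. They were chosen by gene symbol and family membership out of 25206 features, but with the genotype comparison of these same arrays already known, so their changes between the groups are given as a description and support nothing on their own. All 6 had a feature, 1 each.

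The cells were peritoneal macrophages recruited by injection of aged Brewer's thioglycollate broth (1 mL at 4%) and collected on day 4. One group was 3 samples from mice labelled Tet2-/- and the other 3 samples from wild-type littermates, all on the C57BL/6J background. The labels call them biological replicates, and do not say whether any sample pooled several mice. Tet2 is an enzyme that oxidises 5-methylcytosine in DNA. Both groups had been stimulated for 10 h with lipopolysaccharide (10 ng/mL) together with interferon gamma (2 ng/mL), so all values describe stimulated cells. Each sample gave 1 array, and values are log2 expression. Neither the deleted part of Tet2, nor the age of the mice, nor the cells in which the deletion acts is given in the sources used here.

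Beta-2 integrins are the adhesion receptors of white blood cells. Each consists of one alpha subunit joined to Itgb2: Itgal gives LFA-1, Itgam gives Mac-1 (complement receptor 3), Itgax gives complement receptor 4, and Itgad gives a receptor of tissue macrophages. LFA-1 and Mac-1 bind ICAM-1 on other cells, and Mac-1 also takes up particles coated with complement and binds fibrinogen. In macrophages these receptors serve adhesion, migration and phagocytosis, and Icam1 is a known target of NF-kB and of interferon gamma signalling.

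Pearson correlations over all features were at least 0.983 for every pair of arrays. The 5 general macrophage markers (Adgre1, Csf1r, Cd68, Mertk and Fcgr1) lay above the median of every array. In the limma fit described below 0 of them passed and 2 had an unadjusted p under 0.05. Csf1r was higher in Tet2-deficient macrophages by 0.58 on the log2 scale, without overlap of the groups (limma adjusted p = 0.0543). Fcgr1 had a log2 change of -0.51, with groups that overlapped (limma adjusted p = 0.230). The deletion could not be seen at the Tet2 feature, which had log2 levels of 5.55, 5.25 and 5.75 in Tet2-deficient macrophages and 5.40, 5.07 and 5.10 in wild-type macrophages. Where its probes lie relative to the deletion is not given, so this feature may check nothing, and each direction below rests on the labels. Of all features, 0.952% passed an adjusted p of 0.05 in the limma fit across the whole table (0.647% higher and 0.305% lower in Tet2-deficient macrophages). An unadjusted p under 0.05 was found for 16.0% of all features, and every count at that level below is to be read against this share.

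Of the 6 genes, Itgam alone passed that threshold, at 1.96-fold the wild-type level. Its partner Itgb2 was at 1.09-fold, the ligand Icam1 at 0.969-fold and the alpha subunit Itgax at 0.955-fold. Itgal was at 1.28-fold and Itgad at 0.795-fold, and none of these 5 passed. Thus 1 of 6 was called, and it was higher, where 0.647% of all features were called higher. The groups did not overlap for 4 of the 6 (3 higher, 1 lower), against 22.0% of all features. The median log2 change was 0.04 over the 6 genes and -0.04 over all features.

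**Figure D1:**
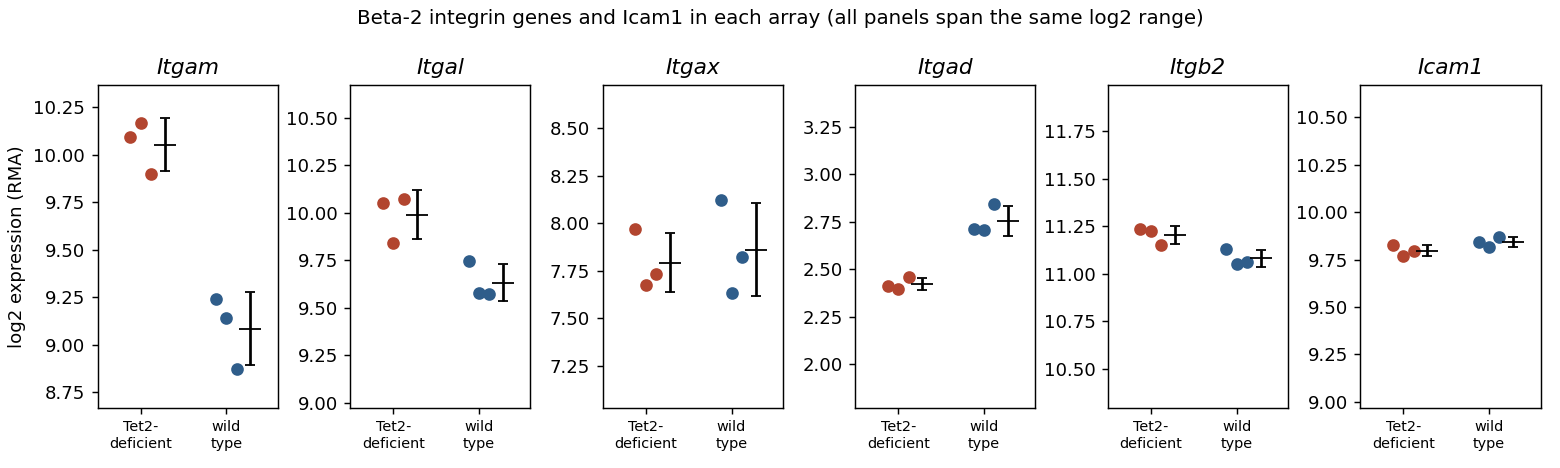
Log2 expression of the 6 genes in each array, with the Tet2-deficient group left of the wild-type group. Points are arrays (n = 3 per group), and the bar and whiskers beside them are the mean and SD. The Itgam groups stand about 1 log2 unit apart (means 10.05 and 9.08), whereas the Icam1 points lie between 9.77 and 9.87 in all arrays.

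Itgam, the alpha subunit of Mac-1, had log2 levels of 10.10, 10.17 and 9.90 in Tet2-deficient macrophages, against 9.24, 9.14 and 8.87 in wild-type macrophages. The lowest Tet2-deficient array lay above the highest wild-type array by more than either group's SD (0.14 in Tet2-deficient and 0.19 in wild type). The log2 change was 0.97 ± 0.14 (SE, n = 3 per group), with a 95% interval of 1.57-fold to 2.43-fold and an adjusted p = 0.0211 in the limma fit. The change lay between 0.86 and 1.05 with any 1 array left out. With 5 arrays the call was lost in 5 of the 6 fits, all but the one without wild-type replicate 1 (adjusted p = 0.0298 to 0.0941), while the number of features called in the whole table was 11 to 155, against 240 with all 6 arrays.

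Itgal, the alpha subunit of LFA-1, had log2 levels of 10.05, 9.84 and 10.07 in Tet2-deficient macrophages and 9.74, 9.58 and 9.57 in wild-type macrophages. The groups did not overlap, but the gap between them was smaller than the spread within the Tet2-deficient group. The log2 change of 0.36 ± 0.12 (limma adjusted p = 0.199) did not pass the threshold, and its 95% interval was 1.06-fold to 1.55-fold.

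Itgax, the alpha subunit of complement receptor 4 and a marker of dendritic cells and of some macrophages, had log2 levels of 7.97, 7.68 and 7.73 in Tet2-deficient macrophages, against 8.12, 7.63 and 7.82 in wild-type macrophages. The groups overlapped throughout, and replicate 1 was the highest array of both. The log2 change was -0.07 ± 0.15 (limma adjusted p = 0.877), with an interval of 0.751-fold to 1.21-fold. Its sign turned when wild-type replicate 1 was left out (0.064), so no direction can be given.

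Itgad, the alpha subunit of the fourth beta-2 integrin, was the only one of the 6 whose level lay below the median of every array, by 0.74 to 1.20 log2 units. Its log2 levels were 2.41, 2.40 and 2.46 in Tet2-deficient macrophages and 2.71, 2.71 and 2.84 in wild-type macrophages. All 3 Tet2-deficient arrays were lower, yet the log2 change of -0.33 ± 0.11 did not pass (limma adjusted p = 0.191). Whether this signal is Itgad transcript or background of the array was not tested.

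Itgb2, the beta subunit that every one of these receptors needs to reach the cell surface, had log2 levels of 11.24, 11.22 and 11.15 in Tet2-deficient macrophages, against 11.13, 11.05 and 11.06 in wild-type macrophages. The groups just failed to touch, at 11.15 and 11.13. The log2 change of 0.12 ± 0.11 did not pass (limma adjusted p = 0.648), and the interval of 0.917-fold to 1.29-fold does not reach the fold fitted for Itgam.

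Icam1, the ligand of LFA-1 and Mac-1, was the least variable of the 6. Its log2 levels were 9.82, 9.77 and 9.80 in Tet2-deficient macrophages and 9.84, 9.82 and 9.87 in wild-type macrophages. The groups overlapped, and the log2 change was -0.05 ± 0.11 (limma adjusted p = 0.880), with an interval of 0.818-fold to 1.15-fold. With the arrays brought to a common median the change was 0.020, so its sign depends on the scaling.

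Since an alpha subunit works only as a pair with Itgb2, the differences between subunits were also taken within each array. There an offset shared by the whole array cancels, but a scaling that depends on the level of a gene does not. The log2 level of Itgam minus that of Itgb2 was -1.14, -1.06 and -1.25 in Tet2-deficient macrophages, against -1.89, -1.91 and -2.19 in wild-type macrophages. The arrays of the groups lay far apart, and the mean difference was 0.85 higher in Tet2-deficient cells, a 1.80-fold shift in the ratio. Probes differ in brightness, so these values show unequal change and not how many molecules of each subunit there were.

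The same within-array comparison was smaller for the other subunits. Itgal minus Itgb2 averaged -1.21 ± 0.16 in Tet2-deficient and -1.45 ± 0.05 in wild-type macrophages (SD, n = 3 each), with groups that only just did not overlap. Itgax minus Itgb2 averaged -3.41 ± 0.14 in Tet2-deficient and -3.22 ± 0.20 in wild-type macrophages, and these groups overlapped. Itgb2 minus Icam1 was 0.17 higher in Tet2-deficient macrophages, without overlap. Pairs with Itgad, whose signal lay below the median of every array, are not read as a ratio of subunits. Itgam also differed from the other alpha subunits: its log2 level relative to Itgal was 0.61 higher, and relative to Itgax 1.04 higher, in Tet2-deficient macrophages. Of the 10 pairs without Itgad, 8 had groups that did not overlap, among them every pair that includes Itgam. The pairs share genes, and those with Itgam carry the change of Itgam given above, so the count adds no separate result. No share over pairs of other genes was taken. These differences are given without a test, since the genes were chosen with this contrast known.

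**Figure D2:**
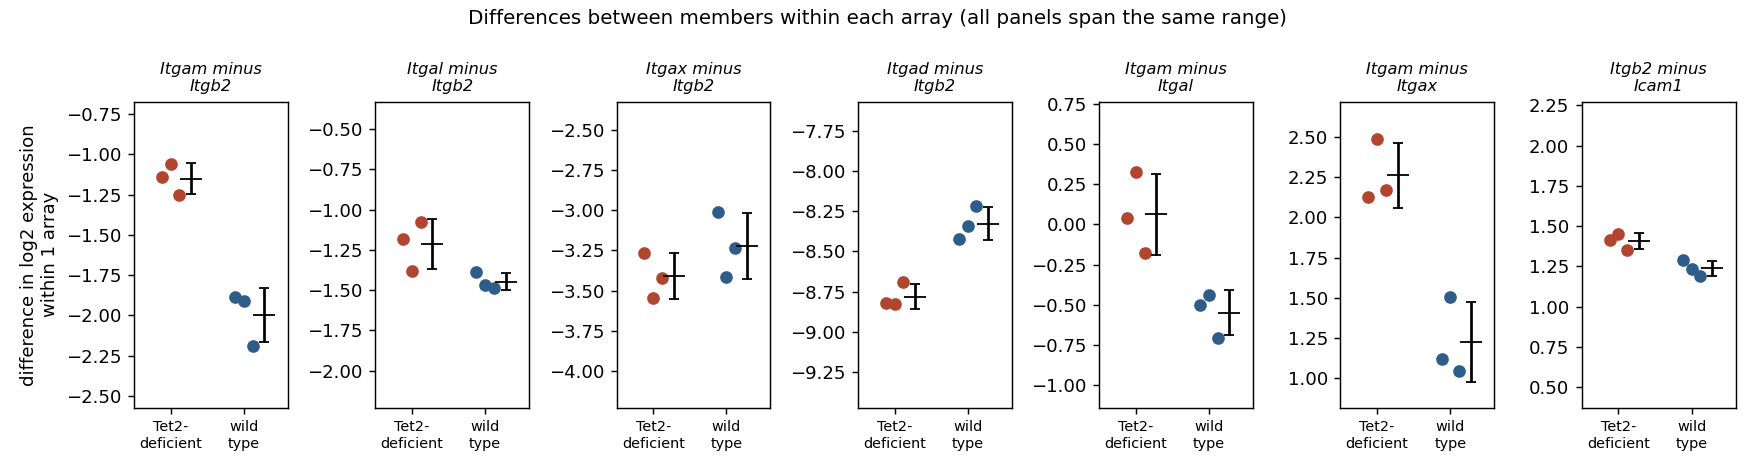
Difference in log2 expression between 7 pairs of genes within the same array, with Tet2-deficient arrays left of wild-type arrays. Points are arrays (n = 3 per group), and the bar and whiskers are the mean and SD. Itgam relative to Itgb2 and to Itgax is separated by 0.85 and 1.04 log2 units between the groups, and Itgax relative to Itgb2 overlaps.

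The 4 alpha genes lie on chromosome 7, Itgb2 on chromosome 10 and Icam1 on chromosome 9. In the RefSeq gene order of GRCm38.p6, no other protein-coding gene stands between Itgam, Itgax and Itgad, and 35 stand between Itgal and Itgam. The 3 adjacent alpha genes thus had log2 changes of 0.97, -0.07 and -0.33. Of the 52 other genes listed from Itgal to Itgad, 36 were measured and 0 passed the limma threshold (7 had an unadjusted p under 0.05, near the 16.0% of all features). Their median log2 change was 0.00, and 7 of the 36 had groups that did not overlap, close to the share of all features.

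The nearest measured protein-coding genes on the side of Itgam were Trim72, at 0.22 ± 0.19, and Pycard, the inflammasome adaptor ASC, at -0.45 ± 0.13 (limma adjusted p = 0.622 and 0.130). The lowest value of the stretch, -1.42 ± 0.28, belonged to the small nucleolar RNA Snora30 (limma adjusted p = 0.0521).

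**Figure D3:**
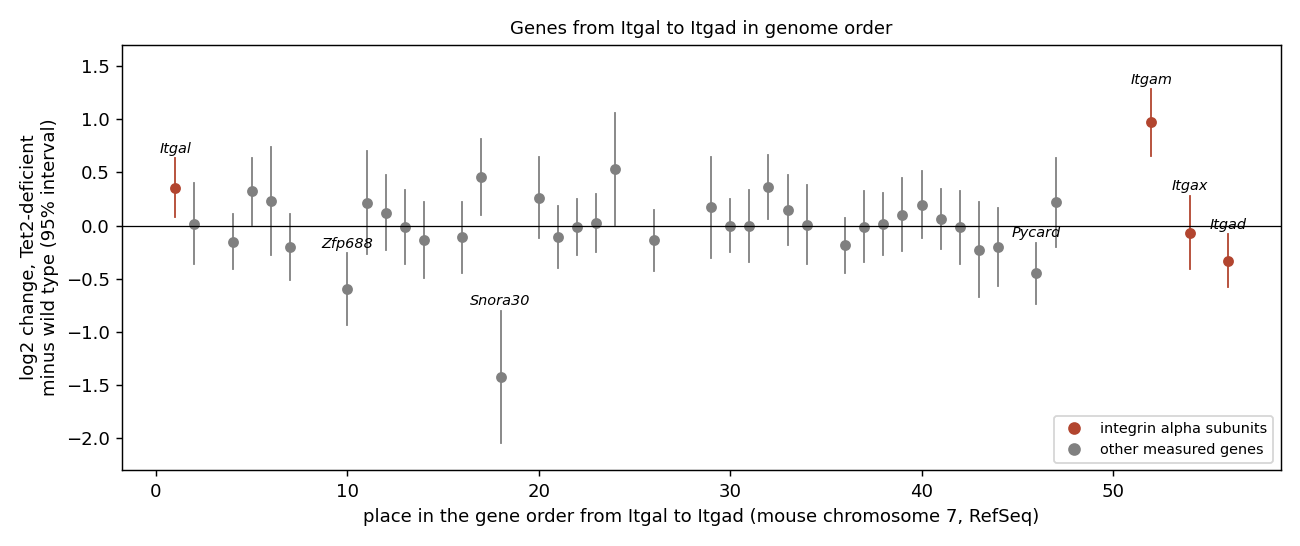
Log2 change, Tet2-deficient minus wild-type, of the measured genes from Itgal to Itgad in genome order, with the 95% interval of the limma fit. Integrin alpha subunits are marked in red. Itgam (0.97) stands above its neighbours Itgax (-0.07) and Itgad (-0.33) and above all 36 other measured genes, the highest of which is at 0.53.

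Promoter sequences of 3 of the 6 genes, Itgam, Itgax and Icam1, were taken from RefSeq on build GRCm38.p6. The 250 bases before the annotated start are shown for these 3 because the promoter set used held no entry for the other 3 genes. All 3 genes are on the plus strand, at chr7:128062390-128062639 (Itgam), chr7:128129300-128129549 (Itgax) and chr9:21015690-21015939 (Icam1). Capitals mark matches, on either strand, to the PU.1-type core GAGGAA, the kappa-B-type motif GGANNNTCC bound by NF-kB, and the GC box GGGCGG bound by Sp1.
Itgam: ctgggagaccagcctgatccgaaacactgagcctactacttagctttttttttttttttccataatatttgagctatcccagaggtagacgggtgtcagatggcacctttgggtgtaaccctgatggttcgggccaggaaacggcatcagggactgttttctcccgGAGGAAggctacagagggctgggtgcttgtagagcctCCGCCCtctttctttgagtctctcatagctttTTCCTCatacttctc
Itgax: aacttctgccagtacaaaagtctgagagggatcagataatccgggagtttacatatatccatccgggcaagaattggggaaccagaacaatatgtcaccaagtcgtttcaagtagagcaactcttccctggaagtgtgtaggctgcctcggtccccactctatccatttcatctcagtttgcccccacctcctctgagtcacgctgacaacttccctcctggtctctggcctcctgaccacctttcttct
Icam1: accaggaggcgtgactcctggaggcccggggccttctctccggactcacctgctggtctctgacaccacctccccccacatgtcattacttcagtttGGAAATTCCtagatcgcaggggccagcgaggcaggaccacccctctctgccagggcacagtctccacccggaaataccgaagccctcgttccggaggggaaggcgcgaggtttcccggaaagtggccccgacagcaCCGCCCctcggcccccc

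The Itgam window held 2 PU.1-type cores, 84 to 79 and 15 to 10 bases before the start, and 1 GC box. The Itgax window held no match to any of the 3 motifs. The Icam1 window held 1 kappa-B-type match (GGAAATTCC, 153 to 145 bases before the start) and 1 GC box, and no matches overlapped each other. Among 32851 RefSeq promoter windows of the same length, 23.3% held the PU.1-type core, 7.27% the kappa-B-type motif and 32.7% the GC box. Of CpG dinucleotides, the substrate context of DNA methylation, the Itgam window held 6, the Itgax window 5 and the Icam1 window 15, against a median of 6 over all windows. Neither methylation nor binding was measured here, so a match is a description of the sequence only.

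Factors known to act at these genes were measured too. Of 8 factors known at the CD11 and CD18 genes, 0 passed in the limma fit and 4 had an unadjusted p under 0.05, where 16.0% of all features did. Spi1, which encodes PU.1, had a log2 change of -0.10 ± 0.11 and Irf8 had -0.45 ± 0.13, with limma adjusted p = 0.730 and 0.124. The smallest unadjusted p after Irf8 belonged to Cebpa (-0.34 ± 0.11) and Runx1 (0.39 ± 0.14). Of the 5 factors measured out of 7 known at Icam1, 0 passed and 2 had an unadjusted p under 0.05, namely the NF-kB subunits Rel (0.44 ± 0.16) and Rela (0.28 ± 0.12). The third in order of p was Relb, at 0.08 ± 0.13.

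Integrin subunits outside the family gave a reference for the Itgam value. Among 14 other alpha subunits 3 rose and the remaining 11 were not called. Among 7 other beta subunits 1 rose and the remaining 6 were not called. That makes 4 of 21, where 0.952% of all features passed. The 3 alpha subunits were the collagen receptor subunit Itga1, at 1.30 ± 0.17, the VCAM-1 receptor subunit Itga4, at 1.00 ± 0.16, and Itgav, the subunit of receptors for vitronectin and latent TGF-beta, at 0.79 ± 0.12 (limma adjusted p = 0.0152, 0.0266 and 0.0219). All 3 had groups that did not overlap.

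Itgb8, which pairs with Itgav, had log2 levels of 7.11, 6.90 and 7.27 in Tet2-deficient macrophages and 5.02, 4.71 and 4.49 in wild-type macrophages. It kept its call whichever array was left out (limma adjusted p = 0.00221 to 0.0143), whereas Itga1 and Itga4 kept theirs in 2 of the 6 fits each and Itgav in 0. The beta subunit Itgb1, the partner of Itga1 and Itga4, had a log2 change of 0.13 ± 0.11 (limma adjusted p = 0.613), close to the 0.12 of Itgb2. Itgb5 and Itgb7 were at -0.28 and -0.16, and neither passed.

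**Figure D4:**
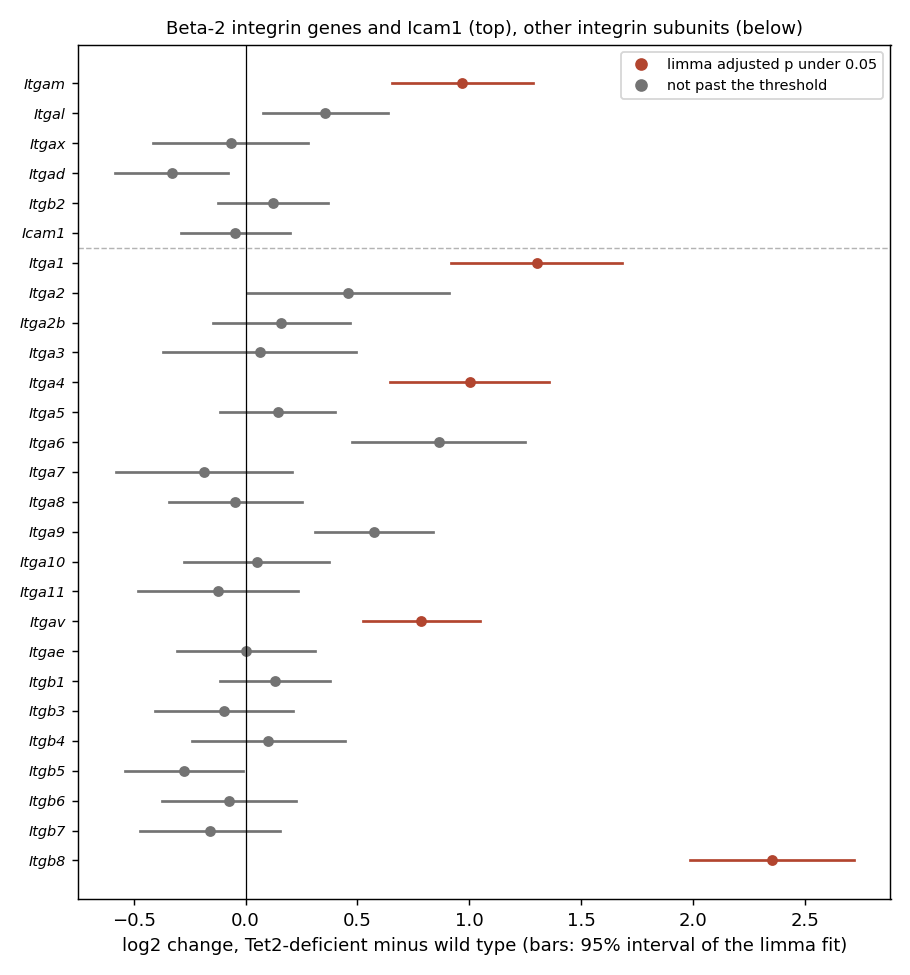
Log2 change, Tet2-deficient minus wild-type, with the 95% interval of the limma fit for the 6 genes (above the dashed line) and 21 other integrin subunits. Red marks an adjusted p under 0.05: Itgam among the 6, and Itga1 (1.30), Itga4 (1.00), Itgav (0.79) and Itgb8 (2.35) among the others.

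A list of cell-surface ligands of beta-2 integrins other than Icam1, with some of their relatives, held 9 measured genes. Of these, 0 passed in the limma fit and 2 had an unadjusted p under 0.05, near the 16.0% of all features. The 2 were Icam2, a second LFA-1 ligand, at 0.99 ± 0.19, and the junctional molecule Jam2, at 0.87 ± 0.18. Both were just short of the threshold (limma adjusted p = 0.0523 and 0.0558). Whether Jam2 itself binds a beta-2 integrin was not examined, and its relatives F11r and Jam3 had 0.11 ± 0.19 and -0.04 ± 0.13, with groups that overlapped. Icam2 had log2 levels of 5.14, 5.77 and 5.24 in Tet2-deficient macrophages and 4.57, 4.11 and 4.51 in wild-type macrophages, so its groups did not overlap. Icam4, an adhesion molecule of red blood cells, had a log2 change of -0.27 ± 0.13, and Vcam1, a ligand of the Itgad receptor and of Itga4, had -0.10 ± 0.19.

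Of 12 measured soluble and matrix ligands of Mac-1, 1 rose, 1 fell and 10 did not pass, where 0.952% of all features passed. The median log2 change was 0.00. The matrix protein fibronectin, Fn1, had log2 levels of 10.49, 11.19 and 10.81 in Tet2-deficient macrophages and 9.59, 9.04 and 8.53 in wild-type macrophages. The plasminogen activator urokinase, Plau, went the other way, with 6.86, 6.55 and 6.86 in Tet2-deficient macrophages and 8.29, 8.17 and 8.39 in wild-type macrophages. Their log2 changes were 1.78 ± 0.26 and -1.52 ± 0.13 (limma adjusted p = 0.0219 and 0.00281). Plau stayed past the threshold with any 1 array left out, and Fn1 did so in 1 of 6 fits. Next in order of p was Ccn1, at 0.60 ± 0.38, which did not pass.

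In inside-out activation, talin and kindlin switch the receptor to its high-affinity form. A list of genes of integrin activation and of the cytoskeleton held 18 measured genes. Of these, 1 rose and the other 17 were not called, where 0.952% of all features passed. The one was Cytip, a cytohesin-binding protein known to restrain LFA-1 adhesion, with log2 levels of 5.66, 5.18 and 5.58 in Tet2-deficient macrophages and 4.84, 4.49 and 4.49 in wild-type macrophages. Its log2 change was 0.86 ± 0.16 (limma adjusted p = 0.0478), and it kept the call in 1 of the 6 fits with an array left out. Rapgef1, an exchange factor for Rap1, and Apbb1ip, which links Rap1 to talin, had 0.39 ± 0.11 and 0.41 ± 0.12, and neither passed. Talin itself, Tln1, and the kindlin Fermt3 had 0.32 ± 0.13 and 0.19 ± 0.12. Rap1b, which encodes a Rap1 protein, went the other way, at -0.28 ± 0.11. Its groups did not overlap, and it did not pass. Of the 18 genes, 7 had an unadjusted p under 0.05, against 16.0% of all features. Groups did not overlap for 8 of the 18, against 22.0% of all features, and 14 of the 18 changes were positive and 4 negative. Since the list is mixed and its called gene Cytip restrains adhesion, these signs give no direction of activation.

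Of 12 measured signalling proteins that act below beta-2 integrins, 0 passed in the limma fit and 3 had an unadjusted p under 0.05, against 16.0% of all features. These were the phospholipase Plcg2, at 0.60 ± 0.12, the ubiquitin ligase Cbl, at 0.60 ± 0.14, and the adaptor Tyrobp (DAP12), at -0.42 ± 0.12, with limma adjusted p = 0.0553, 0.0893 and 0.124. The kinase Syk had 0.03 ± 0.12.

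Beta-2 integrins differ in level between leukocyte types, so markers of other cells were read beside them. In whole cultures more cells of a type and more RNA per cell cannot be told apart. Some markers of resident peritoneal macrophages, a population known for high CD11b, were higher together with Itgam: of 6, 2 rose (Timd4 and Prg4, by 1.19 ± 0.17 and 2.46 ± 0.31, limma adjusted p = 0.0219 and 0.0152), 0 fell and 4 did not pass. With 1 array left out, Timd4 kept its call in 1 of 6 fits and Prg4 in 4 of 6. Among the 4 that did not pass, Icam2 and Cxcl13 had log2 changes of 0.99 and 0.93 (limma adjusted p = 0.0523 and 0.0782), without overlap of the groups. Selp had a log2 change of 0.07 and its groups overlapped. All 6 changes were positive, and 4 genes had an unadjusted p under 0.05, where 16.0% of all features did. The summed level of the 6 on the linear scale was 1221 to 2126 in Tet2-deficient arrays and 492 to 702 in wild-type arrays. Most of that sum came from Prg4 and Timd4, the 2 called genes, so it adds little on the other 4. Gata6, the factor that defines these cells, had log2 levels of 3.59, 4.42 and 3.63 in Tet2-deficient macrophages and 3.66, 3.51 and 3.79 in wild-type macrophages, so its groups overlapped. Apart from 4.42, these Gata6 levels lay near the array medians, which ran from 3.47 to 3.66. Whether so dim a signal could show a change was not tested. The part of resident peritoneal macrophages in the Itgam result was not tested.

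Of the 3 measured monocyte markers 0 passed in the limma fit (1 had an unadjusted p under 0.05), and their summed level was 232 to 384 in Tet2-deficient arrays and 154 to 191 in wild-type arrays. Most of that sum came from Ly6c2, while Ccr2 and Plac8 had groups that overlapped (log2 changes of 0.22 and 0.12). Ly6c2 had a log2 change of 1.01 ± 0.20 (adjusted p = 0.0558). Of 10 neutrophil markers, cells that also carry Mac-1, 0 passed and 0 had an unadjusted p under 0.05, and 8 lay below the median of every array. Their summed level was 265 to 531 in Tet2-deficient and 232 to 314 in wild-type arrays, most of it from S100a8. The part of monocytes and neutrophils was not tested.

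T cells and dendritic cells are other sources of Itgal and Itgax. All 5 measured T cell markers lay below the median of every array, with a summed level of 30.6 to 40.3 in Tet2-deficient and 35.3 to 40.5 in wild-type arrays. Of 7 dendritic cell markers, 5 lay below the median of every array, and their summed level was 86.5 to 133 in Tet2-deficient and 83.2 to 111 in wild-type arrays. Of 5 natural killer cell markers 3 lay below every median, among them Ncr1. None of these 3 lists had a call in the limma fit (1, 0 and 0 genes with an unadjusted p under 0.05). Lists for B cells, mast cells, eosinophils, mesothelium with fibroblasts, and endothelium also held 0 calls (0, 0, 0, 0 and 1 gene with an unadjusted p under 0.05). Of these, the 9 markers of mesothelium and fibroblasts had the widest range of summed level, 144 to 401 in Tet2-deficient and 143 to 208 in wild-type arrays.

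The genes whose profile over the 6 arrays was most like that of each member were found by the root mean square difference of log2 values centred on each gene's mean, among named features above the median level. For Itgam these were the caveolin Cav2, with a difference of 0.07 log2 units, and the formyl peptide receptor Fpr2, also at 0.07, against a spread of 0.50 of Itgam itself. Fpr2 had log2 levels of 9.89, 9.92 and 9.84 in Tet2-deficient macrophages and 9.03, 8.84 and 8.69 in wild-type macrophages. For Itgal they were the RNA-binding protein gene Qk and the centriolar satellite gene Pcm1 (both 0.03), for Itgad Plpbp and Marchf5 (0.02 and 0.03), and for Itgb2 Niban2 and Dad1 (both 0.02). Itgax was most like the DNA ligase gene Lig3 and Cnot10 (0.04 and 0.05), and Icam1 like Nubp1 and Rarg (both 0.01). The spread of the member itself was 0.03 for Icam1, 0.07 for Itgb2, 0.17 for Itgax and Itgad and 0.20 for Itgal, so small differences go with small spreads. No member was among the 2 most like another member. With only 2 genes kept per member this says little, and Itgad, below the median level, could not be chosen.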

How the data were processed

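Whole-transcript Affymetrix arrays of 6 samples, 3 per genotype, were analysed. The log2 values were used as deposited by the authors, and the submitters' processing notes name RMA and affy 1.36.1 for them. RMA equalises the distributions of the arrays and so hides a shift shared by every gene. Probe positions were not known. No 2 arrays were alike: at least 99.7% of features differed in each pair. The number of arrays limits the precision, and no depth applies.

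Of 25206 features, 23185 had a gene symbol in the platform annotation. All features entered 1 fit in limma 3.58.1 under R 4.3.3, as Tet2-deficient minus wild-type (lmFit and eBayes, two-sided, Benjamini-Hochberg, threshold 0.05). Intervals are at 95% with 9.31 degrees of freedom. The fit was tested on simulated data, where 74% of log2 changes of 1 and 97% of larger ones were recovered. Smaller changes were not simulated, so a gene that did not pass may still have changed. P-values, SEs and intervals rest on the spread between the samples of a group, which the labels call biological replicates. In this fit the spread of each gene is drawn towards that of all features (5.31 of the 9.31 degrees of freedom). The SE of Icam1, 0.11, is thus larger than its group SDs of 0.03 and 0.03, and is not its scatter between replicates alone. The same holds for Itgb2, with an SE of 0.11 and SDs of 0.05 and 0.04.

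Members and gene lists were chosen with earlier results of these data known. Named were the 6 members and Tet2, every called gene and up to 3 genes with the smallest p in each related list, the 2 most alike genes of each member, neighbours on chromosome 7 and cell type markers. Vcam1, Spi1, Tln1, Fermt3, Rap1b, Syk, Itgb1 and the genes of the closing section were singled out after their values were seen. Promoters and gene order came from RefSeq, GRCm38.p6. Listed genes without a feature used here were not analysed here. Alternatives were median centring, cyclic loess, dim or unnamed features left out, a trended and robust prior, array weights, a replicate block and each array left out.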

Additional observations from a re-analysis of the deposited data

How the results depend on the processing

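The changes of Itgal, Itgad and Itgb2 kept their direction and their side of the threshold in every alternative in which they were tested; Itgad could not be tested among features above the median level. Itgam kept both in all 7 alternatives with 6 arrays (log2 change 0.93 to 1.03, limma adjusted p = 0.00249 to 0.0261). With 1 array left out it ran from 0.86 to 1.05 and lost the call in 5 of 6 fits. Itgax ran from -0.18 to 0.064 over these 6 fits, positive only without wild-type replicate 1. Icam1 was at 0.020 with arrays centred on their medians. The whole table gave 240 calls, but 846 among features above the median level and 814 with a trended and robust prior. There were 498 with array weights and 11 to 155 with 1 array left out. The causes of these differences, among them the smaller number of features or arrays, were not tested. Of the 240 calls 67.9% were higher, against 78.8% of the calls after median centring and 59.6% with cyclic loess. The related lists gave 7 calls, and 15 with the trended and robust prior. With the replicate block Itgam stayed at 0.97 (adjusted p = 0.0261), the whole table gave 230 calls and the related lists 8, while Glg1 of the closing list lost its call. Same-numbered arrays deviated together with correlations of 0.08, 0.19 and 0.02, of which only the second is over 0.1, so the numbers were not taken as pairs. As a hint from the data the other way, 4 of 6 arrays correlated best with the array of their own number in the other group.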

Other observations

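A further list of 16 leukocyte adhesion molecules, drawn up after the values of the other lists had been seen, held 1 call. Glg1, a ligand of E-selectin, rose by 0.69 ± 0.12 on the log2 scale in Tet2-deficient macrophages (limma adjusted p = 0.0361), and it lost the call with any 1 array left out (0.0696 to 0.149). The nectin family receptor Pvr had a log2 change of 0.61 ± 0.12 and Ceacam1, a homophilic adhesion molecule, had 0.79 ± 0.17, with limma adjusted p = 0.0553 and 0.0701. Next in order of p were the CD6 ligand Alcam, at 0.36 ± 0.12, and the nectin Nectin2, at -0.44 ± 0.16, whose groups did not overlap, and neither passed. Of the 16 changes, 10 were positive and 6 negative. The median log2 change of the list was 0.11, against -0.04 over all features, and 8 of the 16 had groups that did not overlap, against 22.0% of all features.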
